A study of Chlorocebus aethiops with 12 samples.

Results

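The TSC22D genes encode a small family of leucine zipper proteins that share a conserved domain, the TSC box, and pair with one another and with other transcription factors. TSC22D3 is better known as GILZ, the glucocorticoid-induced leucine zipper, which is switched on directly by the glucocorticoid receptor (GR) in many cell types and binds components of NF-kB, AP-1 and the Ras and Raf signalling chain. TSC22D1 was cloned as a transcript stimulated by transforming growth factor beta, and TSC22D2 and TSC22D4 are its less studied relatives, TSC22D4 being known for a part in liver lipid metabolism. The family was taken as 7 human transcript accessions, of which 3 are variants of TSC22D3 and 2 are variants of TSC22D1. On the array 4 of these accessions had a probe and 3 had none, namely NM_198057 and NM_001015881 of TSC22D3 and NM_006022 of TSC22D1. That left 6 probes for 4 genes, out of 41000 probes for 32379 accessions. TSC22D3 (NM_004089) and TSC22D1 (NM_183422) had 1 probe each, and TSC22D2 (NM_014779) and TSC22D4 (NM_030935) had 2 each. The gene of each accession came with the definition of the family, since the files hold accessions and no gene names. All 6 probes were well above background on all 12 arrays, and none carried an outlier or saturation flag, so the filter on dim probes removed none of them.

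RNA came from COS-1 cells, a line of fibroblast-like cells from African green monkey kidney, in 4 groups of 3 biological replicates. Cells of the first group were transfected with GR and given vehicle, and those of the second were transfected with GR and given 100 nM dexamethasone (Dex), a synthetic glucocorticoid. The remaining groups were transfected with GR together with MDFIC, a cytoplasmic protein of the MyoD family inhibitor domain kind that can bind GR, and were given vehicle or 100 nM Dex. Treatment lasted 6 h in every group, after culture in charcoal-stripped serum. All groups thus carried transfected GR, and a group without it is not part of the comparisons. The constructs' species, the share of cells that took them up and the use of an empty vector are not given in the sources used here. A change in the number of responding cells and a change in RNA per cell cannot be told apart in such bulk RNA. The probes were designed for human transcripts, so a level is compared between groups of the same probe and never between probes. NR3C1, MDFIC and markers of the cell type could not be looked up by name.

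The 12 arrays lay on 3 slides. Slide 1 held the GR vehicle replicates and GR Dex replicate 1, slide 2 held GR Dex replicates 2 and 3 with GR+MDFIC vehicle replicates 1 and 2, and slide 3 held GR+MDFIC vehicle replicate 3 with all GR+MDFIC Dex replicates. Slide 3 was read on another scanner and was dimmer, with a 75th percentile signal of 365 to 414 against 758 to 948 on the other slides. On each array 70.3% to 75.2% of the non-control spots stood well above background. Levels are given as log2 of the signal minus the array's 75th percentile, so that 0 is the level of a spot at that percentile. The scanner software's own error was 10.0% to 10.3% of the signal for 5 of the 6 probes and up to 18.6% for the dim TSC22D2 probe A_24_P337062. Each group had 3 arrays, so its spread rests on 3 values. What limited precision was not tested.

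TSC22D3 (GILZ) rose about as far with Dex in cells with GR as in cells with GR and MDFIC, 2.75-fold and 2.77-fold. Its probe A_23_P217688 read -2.00, -1.81 and -2.02 on the GR vehicle arrays and -0.40, -0.45 and -0.59 on the GR Dex arrays (log2 level, replicates 1 to 3). The Dex and vehicle arrays lay far apart, while the SD within a group was 0.12 with vehicle and 0.10 with Dex. In GR+MDFIC cells the levels were -2.01, -2.23 and -2.05 with vehicle and -0.50, -0.69 and -0.68 with Dex. Every one of the 6 Dex arrays was above every one of the 6 vehicle arrays. In linear terms the mean signal went from 26.0% to 71.6% of the array's 75th percentile in GR and from 23.4% to 65.0% in GR+MDFIC cells.

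**Figure D1:**
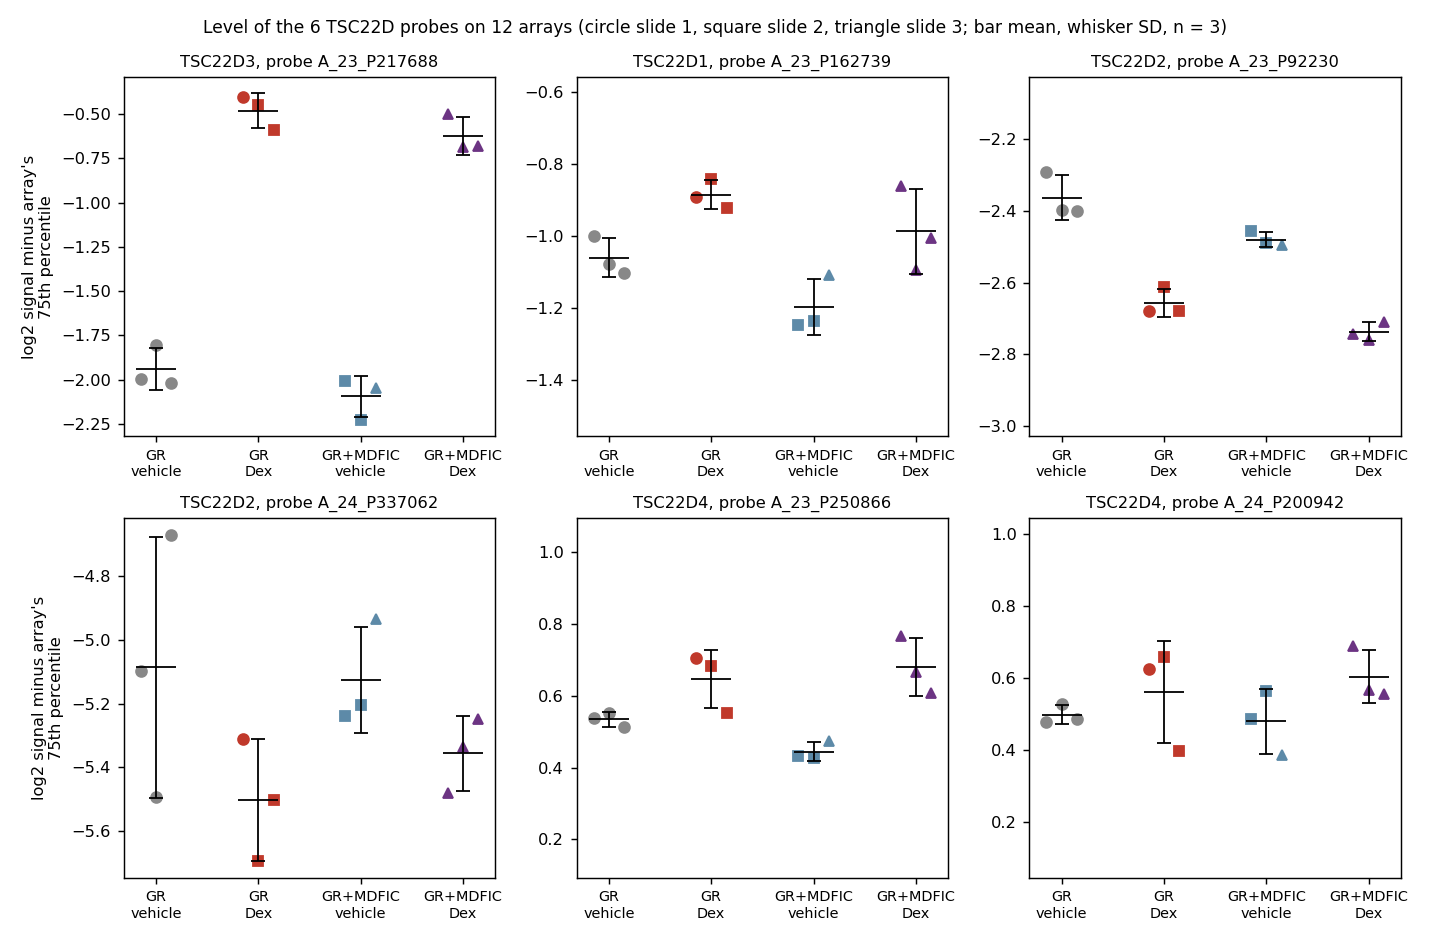
Log2 level of each of the 6 TSC22D probes, relative to the array's 75th percentile, on 12 arrays in 4 groups; points are arrays (circle slide 1, square slide 2, triangle slide 3), bars are means and whiskers SD (n = 3), and the vertical axes differ between panels. TSC22D3 sits between -0.69 and -0.40 on the Dex arrays and between -2.23 and -1.81 on the vehicle arrays, whereas the other 5 probes differ by less than 0.5 between the means of Dex and vehicle.

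In limma, the log2 fold of TSC22D3 with Dex was 1.46 ± 0.09 (SE) in GR cells (Benjamini-Hochberg adjusted p = 1.14e-05, 95% interval 1.26 to 1.66, n = 3 a group). In GR+MDFIC cells it was 1.47 ± 0.09 (SE, limma, Benjamini-Hochberg adjusted p = 7.61e-06, 95% interval 1.27 to 1.67, n = 3 a group). Within slide 1 the single Dex array stood 1.54 above the mean of the 3 vehicle arrays. Within slide 3 the 3 Dex arrays stood 1.42 above the single vehicle array. Both values lay near the folds of the fit. Each has a single array in an arm, and its arrays are also part of the fit, so it is no separate measure of the rise. Among the 30177 probes tested, 0.457% had a higher fold with Dex in GR and 1.48% had a higher one in GR+MDFIC cells, which placed TSC22D3 at rank 139 and rank 446.

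Whether MDFIC altered the response of TSC22D3 was tested as the difference of the Dex effects. That difference was 0.01 ± 0.13 on the log2 scale (SE, limma, Benjamini-Hochberg adjusted p = 0.98), with a 95% interval from -0.27 to 0.29. The fold in GR+MDFIC cells was 1.01 times that in GR cells, and the interval of this ratio ran from 0.83 to 1.23. A change of the response smaller than those bounds could not be resolved with 3 arrays a group. The bounds come from the fit without slide. With slide as a fixed block the difference was -0.12 ± 0.19 (log2, SE, limma), so the SE was larger and the sign was opposite. The level itself was lower in GR+MDFIC cells by 0.15 ± 0.09 with vehicle and by 0.14 ± 0.09 with Dex (log2, SE), and neither difference passed in limma (Benjamini-Hochberg adjusted p = 0.41 and 0.378). The arrays of the 2 kinds of cells overlapped in both cases. Ordered by mean, the levels ran from GR Dex at -0.48 ± 0.10 through GR+MDFIC Dex at -0.62 ± 0.11 and GR vehicle at -1.94 ± 0.12 to GR+MDFIC vehicle at -2.10 ± 0.12 (log2 level, SD, n = 3). Of the neighbours in that order, the Dex pair and the vehicle pair did not differ beyond their spread.

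TSC22D1, the transforming growth factor beta responsive member, was slightly higher with Dex, by 1.13-fold in GR and 1.16-fold in GR+MDFIC cells, without passing the test in either. Its probe A_23_P162739 read -1.00, -1.08 and -1.10 on the GR vehicle arrays against -0.89, -0.84 and -0.92 with Dex. In GR+MDFIC cells it read -1.25, -1.24 and -1.11 with vehicle against -0.86, -1.10 and -1.01 with Dex. The groups did not overlap in either kind of cell, but in GR+MDFIC cells the lowest Dex array (-1.10) and the highest vehicle array (-1.11) were nearly level, and both were on slide 3. The log2 fold was 0.18 ± 0.07 in GR and 0.21 ± 0.07 in GR+MDFIC cells (SE, limma, Benjamini-Hochberg adjusted p = 0.182 and 0.0699). In GR+MDFIC cells it passed in limma with quantile scaling (0.22, Benjamini-Hochberg adjusted p = 0.0415), without GR+MDFIC vehicle replicate 3 (0.25, adjusted p = 0.0307) and without GR+MDFIC Dex replicate 2 (0.26, adjusted p = 0.0493). Under the other 22 alternatives it did not pass. Among these were slide as a fixed block (0.12, limma, Benjamini-Hochberg adjusted p = 0.668) and a limma fit on the GR+MDFIC groups alone (0.21, adjusted p = 0.191). The fixed-block value is the difference within slide 3, which held a single vehicle array of these cells.

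TSC22D2 fell with Dex by a small amount at its brighter probe, to 81.6% of the vehicle level in GR and 83.7% in GR+MDFIC cells. Probe A_23_P92230 read -2.29, -2.40 and -2.40 on the GR vehicle arrays and -2.68, -2.61 and -2.68 with Dex. In GR+MDFIC cells the readings were -2.46, -2.49 and -2.49 with vehicle and -2.74, -2.76 and -2.71 with Dex. This probe had the smallest spread between replicates in GR+MDFIC cells, with an SD of 0.02 with vehicle and 0.03 with Dex, and all 6 Dex arrays lay below all 6 vehicle arrays. The log2 fold was -0.29 ± 0.04 in GR and -0.26 ± 0.04 in GR+MDFIC cells (SE, limma, Benjamini-Hochberg adjusted p = 0.00335 and 0.00501). Within slide 1 the difference was -0.32 and within slide 3 it was -0.24. These are also the estimates with slide as a fixed block, and each rests on a single Dex or a single vehicle array. With that block neither fold passed in limma (Benjamini-Hochberg adjusted p = 0.0514 and 0.123). A random slide block left both folds past the threshold in limma (Benjamini-Hochberg adjusted p = 0.00451 and 0.00799). Neither call held with normexp background correction and an offset of 50, where the fold was -0.29 in GR and turned to 0.56 in GR+MDFIC cells (limma, Benjamini-Hochberg adjusted p = 1 and 0.195). Under that setting the median of all probes stood at 0.48 in the latter comparison. When quantile scaling was added to it the folds were -0.18 and -0.13, and the second did not pass (limma, Benjamini-Hochberg adjusted p = 0.0325 and 0.062).

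The dim second probe of TSC22D2, A_24_P337062, lay between -5.70 and -4.67 on all arrays, near 2% to 4% of the 75th percentile signal. Its GR vehicle arrays alone had an SD of 0.41, as large as the difference between Dex and vehicle. With Dex it differed by -0.42 ± 0.19 in GR and -0.23 ± 0.19 in GR+MDFIC cells (log2, SE, limma, Benjamini-Hochberg adjusted p = 0.274 and 0.439). In GR cells the Dex and vehicle arrays overlapped, and the fold was -0.62 without GR vehicle replicate 2 and -0.21 without GR vehicle replicate 3. The GR+MDFIC value was -0.13 without GR+MDFIC vehicle replicate 3. Both probes of TSC22D2 had negative folds in both kinds of cell, except in GR+MDFIC cells with normexp and no quantile scaling. The spread of the dim probe does not allow its sizes to be set against those of the brighter one.

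TSC22D4 gave a small rise at 1 of its 2 probes and in 1 of the 2 kinds of cell. Probe A_23_P250866 rose 1.18-fold with Dex in GR+MDFIC cells, from 0.43, 0.43 and 0.47 with vehicle to 0.77, 0.67 and 0.61 with Dex. In GR cells it read 0.54, 0.55 and 0.51 with vehicle and 0.70, 0.68 and 0.55 with Dex, so that the lowest Dex array was level with the highest vehicle array. The log2 fold was 0.24 ± 0.06 in GR+MDFIC cells and 0.11 ± 0.06 in GR cells (SE, limma, Benjamini-Hochberg adjusted p = 0.022 and 0.32). The difference between those Dex effects was 0.12 ± 0.08 (SE, limma, Benjamini-Hochberg adjusted p = 0.613), so the test of the difference did not pass. Leaving out GR+MDFIC vehicle replicate 1 or 2, or GR+MDFIC Dex replicate 1 or 2, ended the call (limma, Benjamini-Hochberg adjusted p = 0.0743, 0.0713, 0.0691 and 0.0577), with log2 folds of 0.23, 0.23, 0.19 and 0.24. So did a fixed slide block (0.21, adjusted p = 0.275), a limma fit on the GR+MDFIC groups alone (0.24, adjusted p = 0.0849), and normexp with no quantile scaling (0.06, adjusted p = 0.753). A random slide block kept it in limma (0.23, Benjamini-Hochberg adjusted p = 0.0351).

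The other TSC22D4 probe, A_24_P200942, did not pass in either kind of cell. It lay between 0.39 and 0.69 on all arrays, and its Dex and vehicle groups overlapped in both. Its log2 fold was 0.06 ± 0.08 in GR and 0.12 ± 0.08 in GR+MDFIC cells (SE, limma, Benjamini-Hochberg adjusted p = 0.758 and 0.296). When GR Dex replicate 1, 2 or 3 was left out, the value for GR cells was 0.030, 0.013 or 0.14, respectively. That for GR+MDFIC cells was 0.078 without GR+MDFIC vehicle replicate 3 and 0.082 without GR+MDFIC Dex replicate 1. Both probes of TSC22D4 thus had positive folds with Dex, and the 95% intervals of the second probe, -0.11 to 0.23 and -0.05 to 0.30, include both 0 and the values of the first.

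**Figure D2:**
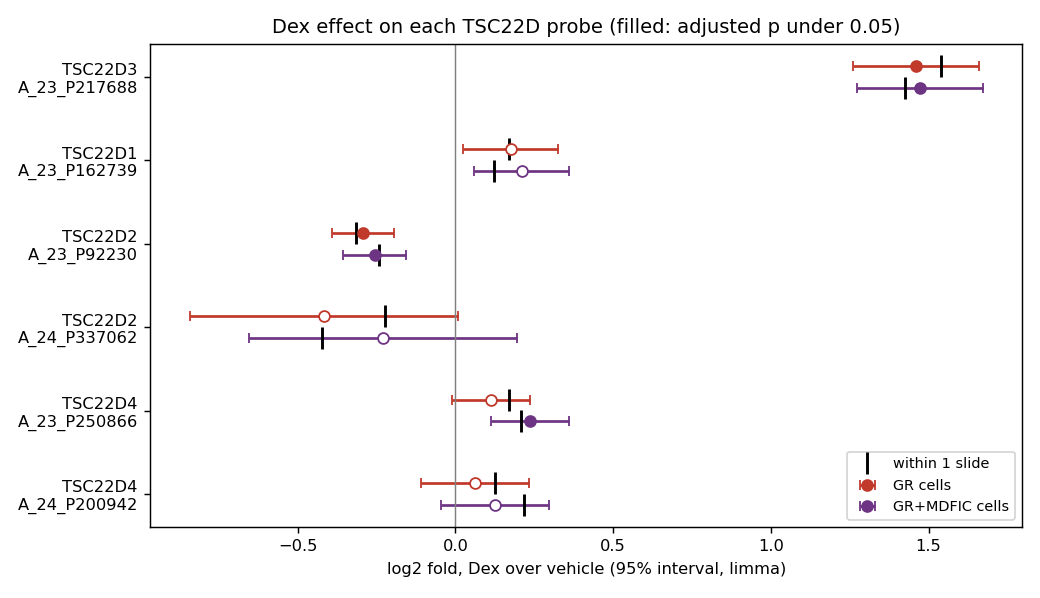
Log2 fold of Dex over vehicle for each TSC22D probe in GR and in GR+MDFIC cells, with 95% intervals from limma; filled points passed at an adjusted p under 0.05, and black ticks give the difference within the slide that held both arms (slide 1 for GR cells, slide 3 for GR+MDFIC cells). TSC22D3 stands near 1.5 in both kinds of cell with overlapping intervals, and the 2 TSC22D2 probes lie below 0, a direction that turns in GR+MDFIC cells with normexp and no quantile scaling.

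Counted over the family, 2 of the 6 probes were called with Dex in GR cells, 1 higher and 1 lower, where 6.75% of all probes tested were called, 4.15% higher and 2.6% lower. In GR+MDFIC cells 3 of the 6 were called, 2 higher and 1 lower, where 12.9% of all probes were called, 6.27% higher and 6.65% lower. By median scaling 38.4% of the calls in GR+MDFIC cells were higher, against 48.5% as reported. Dex and vehicle groups did not overlap for 4 of the 6 probes in GR and 5 of the 6 in GR+MDFIC cells, and this held for 25.8% and 31.9% of all probes. Some of the family's gaps were near-ties. For A_23_P250866 in GR cells the lowest Dex array was at 0.5531 and the highest vehicle array at 0.553. In GR+MDFIC cells the nearest Dex and vehicle arrays were at -1.096 and -1.109 for TSC22D1, and at -5.249 and -5.239 for A_24_P337062. The median log2 fold of the 6 probes was 0.09 in GR and 0.17 in GR+MDFIC cells, beside 0.01 and -0.01 over all probes. These medians hold 2 genes with 2 probes each, which are not independent. The 2 Dex comparisons share no array. Their tests are not independent, since a single fit gave both a shared spread and slide 2 held arrays of both.

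**Figure D3:**
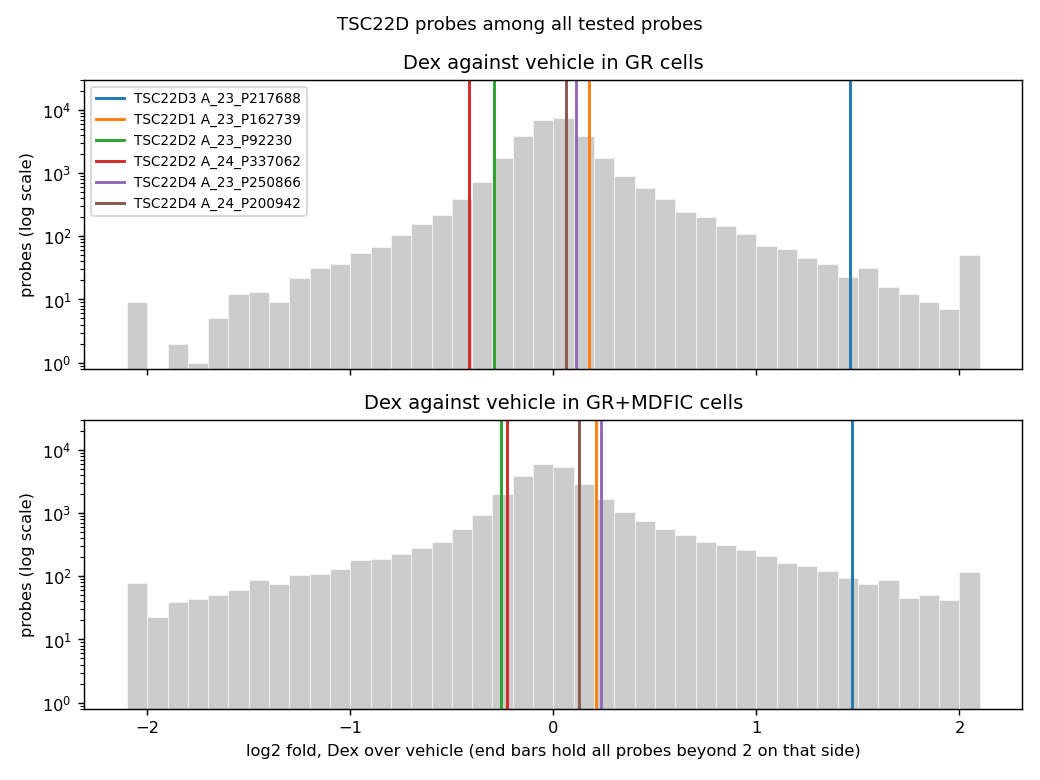
Number of probes, on a log scale, by log2 fold of Dex over vehicle among the 30177 probes tested in GR cells (upper panel) and GR+MDFIC cells (lower panel), with lines at the 6 TSC22D probes. TSC22D3 lies in the right tail at 1.46 and 1.47, and the other 5 probes lie between -0.42 and 0.24; in GR+MDFIC cells the TSC22D2 folds turn positive with normexp and no quantile scaling.

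MDFIC without a change of hormone gave no call in the family. None of the 6 probes differed between GR+MDFIC and GR cells with vehicle in limma, where 0.775% of all probes were called. At an unadjusted p under 0.05 there was 1, the TSC22D2 probe A_23_P92230 (-0.12 ± 0.04, SE, limma, Benjamini-Hochberg adjusted p = 0.227). All 6 log2 differences with vehicle were negative, from -0.15 to -0.02, though those of A_24_P337062 and A_24_P200942 turned positive with slide as a fixed block (0.15 and 0.12), and the groups did not overlap for 3 probes, beside 21.8% of all probes. With Dex none of the 6 was called in limma, where 4.84% of all probes were, and none had an unadjusted p under 0.05. With Dex the differences ran from -0.14 to 0.15, with the groups apart for 1 probe beside 31% of all probes. The vehicle groups of the 2 kinds of cell shared no slide, nor did the Dex groups, so that slide and MDFIC cannot be told apart here except through a block fitted over all groups.

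The Dex effects of GR+MDFIC and GR cells differed for 0 of the 6 probes in limma, with 0 at an unadjusted p under 0.05, where 0.053% of all probes were called. Its estimates ran from 0.01 for TSC22D3 to 0.19 for the dim TSC22D2 probe. For the brighter TSC22D2 probe the difference was 0.04 with a 95% interval from -0.10 to 0.18, and for TSC22D1 it was 0.03 with an interval from -0.18 to 0.25.

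The transcripts whose levels followed TSC22D3 most closely were looked for among 20079 other probes with NM accessions that were well above background on all arrays. By Pearson correlation over the 12 arrays, the 5 closest were the probe of NM_005953 (r = 0.993), that of NM_033624 (r = 0.993), that of NM_006096 (r = 0.991) and 2 probes of NM_001661 (r = 0.990 and 0.989), with Spearman's rho from 0.881 to 0.951. In GR cells their log2 folds with Dex were 1.57, 0.37, 0.88, 0.66 and 0.74 in that order. The corresponding folds in GR+MDFIC cells were 1.55, 0.38, 0.97, 0.73 and 0.80. NM_005953 was thus near TSC22D3 in size as well as in pattern, while NM_033624 moved far less for nearly the same r. The arrays form a Dex cluster and a vehicle cluster, and 643 of the candidates had r over 0.9, so that such an r mainly says that a transcript rose with Dex in both kinds of cell. For TSC22D1 the closest were NM_001137550 (r = 0.951), NM_145109 (r = 0.917) and NM_006156 (r = 0.914), and 11 candidates had r over 0.9. These correlations are descriptions of 12 arrays that share 3 slides.

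**Figure D4:**
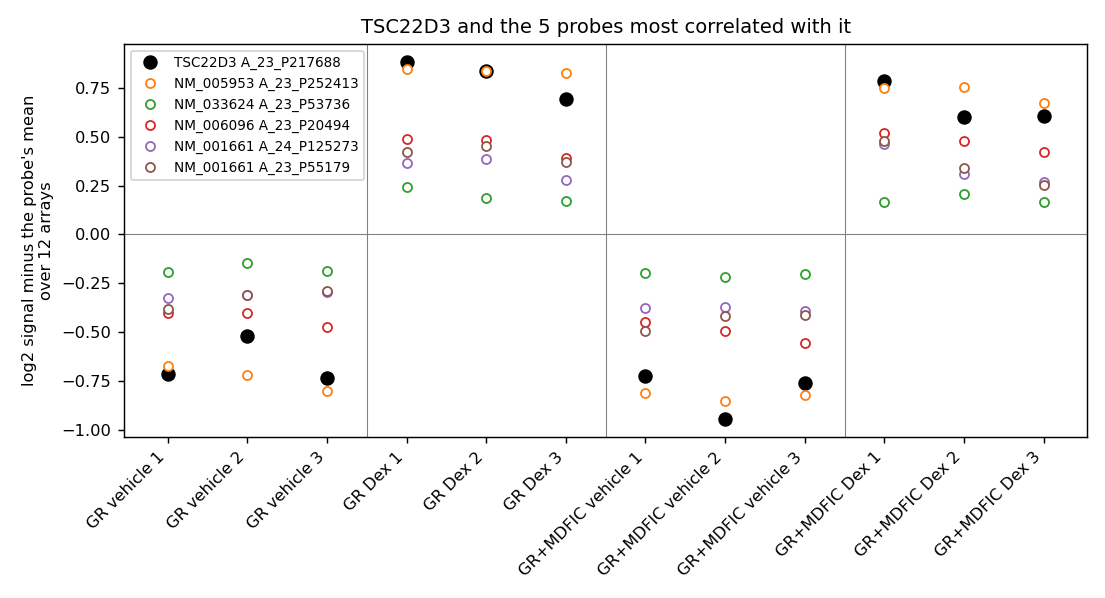
Log2 level minus the probe's own mean over the 12 arrays for TSC22D3 (black) and the 5 probes most correlated with it (open circles, named by accession), in the order of the 4 groups. All 6 probes are below their mean on the 6 vehicle arrays and above it on the 6 Dex arrays, and NM_005953 covers nearly the same range as TSC22D3.

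The rise of TSC22D3 was called under all 26 alternative settings in GR and all 25 in GR+MDFIC cells. Over these the log2 fold ran from 1.13 to 1.54 for GR and from 1.06 to 1.52 for GR+MDFIC cells. The lowest values came from normexp with an offset of 50 and quantile scaling together. Many settings could not move the fold, namely the series table, other filters, outlier spots kept, the replicate block and the intensity trend. The same holds for fits on the compared groups and for leaving out an array of the other kind of cell. At most the SE and adjusted p could change there, so these settings are no separate check of the fold. When a single array was left out the fold stayed between 1.42 and 1.53 in GR and between 1.41 and 1.52 in GR+MDFIC cells, with a Benjamini-Hochberg adjusted p in limma of at most 0.000149 and 7.64e-05. Without the 4 arrays of slide 3 the fold was 1.46 in GR cells, a value that could not move because that slide held only GR+MDFIC arrays.

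**Figure D5:**
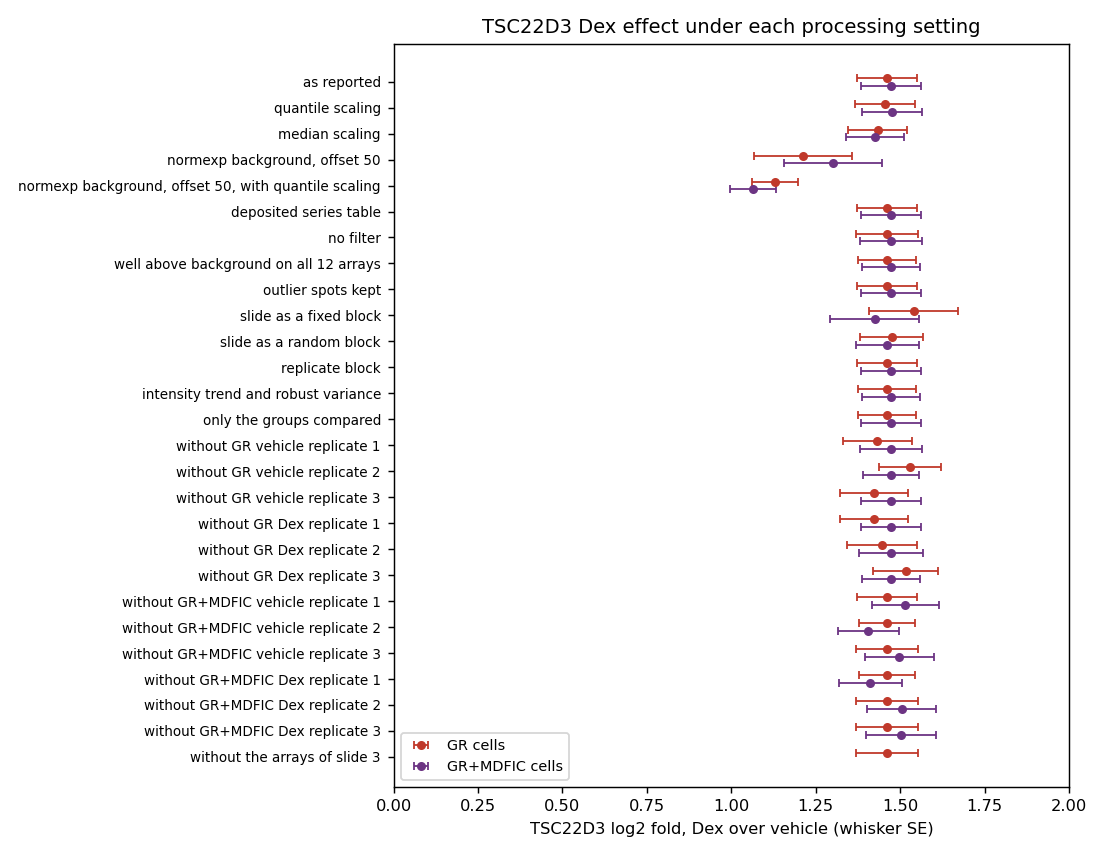
Log2 fold of TSC22D3 with Dex in GR and in GR+MDFIC cells under each processing setting, with the SE from limma as whiskers; leaving out slide 3 gives a value in GR cells only. All settings lie between 1.06 and 1.54, and the whiskers of the 2 kinds of cell overlap in every setting that gives both values.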

How the data were processed

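The deposited values were one-colour Agilent intensities on a linear scale, from Cy3-labelled RNA, per the labels' protocols. Agilent Feature Extraction 12, per the submitters' processing notes, gave a background-subtracted processed signal per spot (per the file headers, version 12.0.0.7 wrote slides 1 and 2, and slide 3 came from 12.0.3.1). No normalization between arrays is recorded there. The deposited series table held the same intensities, with a largest difference of 0, so its scale is linear and uncentred. The deposited flags are other values of 0 or 1, per the file headers.

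Here log2 of the processed signal minus each array's 75th percentile over non-control spots was used. Outlier-flagged spots were left out (42 missing values among probes tested), saturated spots were kept and spots of 1 probe were averaged. Probes stayed apart, and 30177 of 41000 were kept, namely those that some group showed well above background on all of its 3 arrays, with at least 2 unflagged arrays in each group. A group-means model over 12 arrays was fitted with limma 3.58.1 (R 4.3.3, with version 1.17.8 of data.table) with 8 residual degrees of freedom. Tests were two-sided, and a call is a Benjamini-Hochberg adjusted p under 0.05 over all probes tested. The script was tested on simulated data. Figures were drawn with matplotlib 3.10.9 (Python 3.11.15).

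The alternatives were quantile and median scaling, normexp (offset 50), the series table, other filters, outlier spots kept, slide and replicate blocks, an intensity trend with robust variance, fits on the compared groups and leaving out each array. Leaving out slide 3 and normexp with quantile scaling were added after seeing the data. The family and the settings were chosen with earlier results of these data known. All family probes are named, with the 5 probes most correlated with TSC22D3 and the 3 most correlated with TSC22D1. The rule also held lists of glucocorticoid-induced genes, of partners of the TSC22D proteins and of cell type markers by symbol. These were not used here, because the files pair no symbols with probes, and no sequences were used for the same reason.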

Additional observations from a re-analysis of the deposited data

How the results depend on the processing

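With slide as a fixed block, and with normexp (offset 50), TSC22D3 was the 1 family probe still called in each Dex comparison, from 2 (GR) and 3 (GR+MDFIC). Normexp put the median of all probes at 0.48 for Dex in GR+MDFIC, 0.54 for MDFIC in Dex and 0.53 for the difference of the Dex effects, and within 0.01 of 0 with quantile scaling added. Without 1 array there were 2 calls for GR and 2 to 4 for GR+MDFIC. No setting called a family probe for MDFIC or the difference.

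A sign changed in 32 cases, 1 of them of a called value, A_23_P92230 with Dex in GR+MDFIC (0.56, normexp). With normexp the others were 1.15 (A_24_P337062, Dex in GR+MDFIC), 0.025 (TSC22D3), 0.15 (TSC22D1), 0.79 (A_23_P92230) and -0.15 (A_23_P250866) for MDFIC in Dex, and -0.096 (A_23_P250866) for the difference. Normexp with quantile scaling gave -0.067 (A_24_P337062, MDFIC in Dex) and -0.065 (TSC22D3, difference). The fixed block gave 0.15 (A_24_P337062) and 0.12 (A_24_P200942) for MDFIC in vehicle, -0.045 (A_24_P337062) for MDFIC in Dex, and -0.12 (TSC22D3), -0.048 (TSC22D1) and -0.20 (A_24_P337062) for the difference. Median scaling gave -0.0049 (A_23_P250866, MDFIC in Dex) and -0.0084 (TSC22D3, difference), a random slide block -0.014 (TSC22D3, difference), and leaving out slide 3 gave 0.028 (A_24_P200942, MDFIC in vehicle). Without 1 array, MDFIC in vehicle ran from -0.24 to 0.17 (A_24_P337062) and -0.062 to 0.028 (A_24_P200942), MDFIC in Dex from -0.013 to 0.071 (A_23_P250866) and -0.038 to 0.093 (A_24_P200942), and the difference from -0.056 to 0.055 (TSC22D3), -0.029 to 0.088 (TSC22D1), -0.020 to 0.39 (A_24_P337062) and -0.019 to 0.11 (A_24_P200942).

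Over all probes the calls were 2036 and 3899 for Dex, 234 and 1461 for MDFIC (vehicle, Dex) and 16 for the difference. They were 1047, 979, 78, 53 and 24 with the fixed block and 32, 81, 10, 8 and 0 with normexp, where 90.6% and 87.7% of Dex calls were higher, against 61.4% and 48.5%. Without 1 array they ran from 1285 to 2153, 2182 to 7567, 98 to 639, 110 to 3582 and 3 to 2080, each highest without GR+MDFIC vehicle replicate 3. Fits on the compared groups gave 1658 for Dex in GR+MDFIC and 53 and 2647 for MDFIC. For MDFIC, no filter gave 132 and 953, the random block 119 and 145, and an intensity trend 378 and 2310. Normexp with quantile scaling gave 2685 for MDFIC in Dex.

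No clear pairing of the arrays by replicate number was seen, which does not show that there was none. Same-numbered deviations from group means correlated from -0.28 to 0.22, 5 of 18 over 0.1. The closest array of another group had the same number in 15 of 36 cases. With a replicate block the family counts were 2 and 3 for Dex and 0 otherwise, and over all probes 134 for MDFIC in vehicle and 6 for the difference.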
